A study of Caenorhabditis elegans with 36 samples.

Results

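The comparison described here set BY273 animals against N2 animals, both fed krill oil and both collected at day 1 of adulthood. Its members were the libraries whose labels name krill oil as the treatment, day 1 as the time and BY273 or N2 as the strain, which gave 6 of the 36 libraries of the series, 3 for each strain. The series measured RNA of whole Caenorhabditis elegans worms of both strains, with and without krill oil, at days 1, 3 and 6. N2 is the wild type laboratory strain. BY273 carries an integrated array in which the promoter of dat-1, the dopamine transporter gene, drives GFP and human α-synuclein, so both transgene products are made in the few dopaminergic neurons of the animal, and the study used it as a model of Parkinson's disease (PD). The labels list the genotype of both strains as wild type, and the count tables hold no entry for GFP or α-synuclein. Animals of all groups were synchronized hermaphrodites on OP50 bacteria, and the krill oil groups had 0.5 µl/ml krill oil in their plates from the L4 larval stage. BY273 is a single line, so a difference between the strains covers the transgenes, their place of insertion and any other difference between the stocks, which cannot be told apart. The study calls the replicates biological, and the sources used here do not say whether they came from separate cultures, so the p-values measure the spread between these libraries.

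Krill oil supplies marine phospholipids, omega-3 fatty acids and astaxanthin. In the worm, fatty acids are taken up and modified mainly in the intestine, which also holds the lysosomal proteases, the cytochrome P450s and the conjugating enzymes that handle foreign compounds. α-Synuclein is a synaptic vesicle protein that aggregates in PD, and the worm has no α-synuclein gene of its own. Hermaphrodites make sperm once, as late larvae, before the germline switches to oocytes. A strain comparison within 1 diet and 1 age asks which of these programmes differ between PD and wild type animals when both receive krill oil.

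The 6 libraries held 16488713 to 25052350 counts, within the 16488713 to 34605080 of the series. Ribosomal RNA took 5.31%, 8.77% and 24.5% of the counts in BY273 replicates 1, 2 and 3, against 7.91%, 5.87% and 10.6% in N2. The third BY273 library thus had the highest share, and the difference between the strain means of 4.75 percentage points gave an exact two-sided permutation p of 0.7, where 0.1 is the smallest p that 3 against 3 libraries allow. Correlations of log2 values were 0.991 to 0.993 within a strain and 0.983 to 0.989 between strains, and no pair of libraries differed by less than sampling noise. Some libraries outside the comparison go against their labels. T23G5.11, C27D8.3, B0511.11 and hmg-20, which separated the strains at days 1 and 3, had the N2 level in all 6 libraries labelled BY273 at day 6 and the BY273 level in all 6 libraries labelled N2 at day 6, and 1 control library of day 3 labelled N2 (replicate 3) lay in between. Day 6 libraries are therefore named by label only, and results at day 1 used none of them.

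At an adjusted p under 0.05 (edgeR quasi-likelihood test, Benjamini-Hochberg adjustment), 480 of 13461 genes tested differed between the strains, or 3.57%. Of these, 255 genes (1.89% of those tested) were higher in BY273 and 225 genes (1.67%) were lower. Genes called in this way are named below as higher or lower at any fold change, and differentially expressed genes (DEGs) had in addition an absolute log2 fold change above 1. There were 70 DEGs higher in BY273 (0.52% of genes tested) and 107 lower (0.795%). The differences were mostly modest, with a median absolute log2 fold change of 0.68 among the 480 genes and a median of 0.00 over all genes tested. The larger ones lay mostly among genes with few counts: 21 of the 70 higher DEGs and 12 of the 107 lower DEGs reached 5 CPM (counts scaled to a common library size) in the strain where they were higher. All 480 called genes had no overlap between the 3 libraries of one strain and the 3 of the other, a separation that 24.5% of all genes tested showed. Most called genes, 464, code for proteins, and 11 are annotated as pseudogenes, 4 as ncRNA and 1 as lincRNA. The count of called genes depended on single libraries: it was 613 without BY273 replicate 1, 202 without BY273 replicate 2, 229 without BY273 replicate 3, 137 without N2 replicate 1, 182 without N2 replicate 2 and 435 without N2 replicate 3. Of 124 called genes chosen for description, 49 kept their call whichever of the 6 libraries was left out, and the loss is given with the others where they are named. For called genes outside these 124 the omissions were not recomputed gene by gene.

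**Figure D1:**
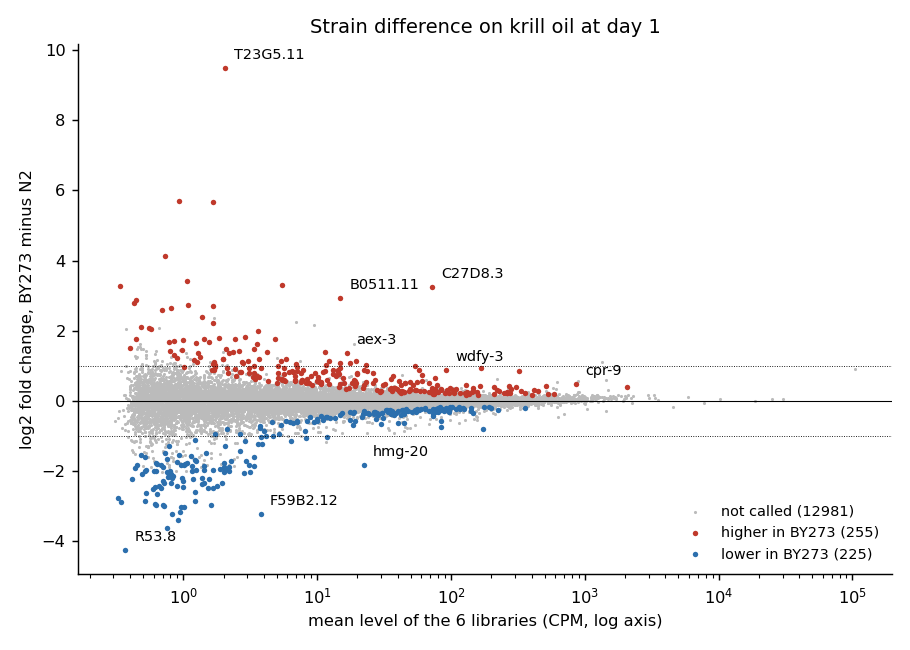
Strain difference of the 13461 genes tested on krill oil at day 1. The x axis is the mean level of the 6 libraries (CPM, log axis), the y axis the log2 fold change of BY273 minus N2, dotted lines mark the fold change limit of a DEG, and colours mark the 255 genes higher and the 225 genes lower at an adjusted p under 0.05. C27D8.3 and hmg-20 stand far from zero at levels above 5 CPM, most other large differences lie at the left, and the height of T23G5.11 depends on the prior count because N2 had no count.

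T23G5.11, an ncRNA gene, was detected in every BY273 library and in no N2 library of the comparison. It was singled out after its values were seen. T23G5.11 lies on the minus strand at III:9242530-9242726 (WBcel235), is 197 bases long, and ends 249 bases before the start of dat-1 at III:9242975-9246802 on the plus strand. Its levels were 5.33, 3.80 and 3.05 CPM in BY273 replicates 1, 2 and 3 and 0 in each N2 library, from 262 counts against 0. Against a floor of 3 counts over the N2 group, T23G5.11 was at least 93.0-fold higher in BY273 (adjusted p = 0.000784, edgeR). This floor and the count intervals below cover counting error only. The transgenes of BY273 use the dat-1 promoter, and in a table of counts per gene a read from a transgene copy of this interval and a read from the chromosome cannot be told apart. A called gene on the other side of T23G5.11, saeg-2 (III:9240363-9242514, plus strand), was also named after its values were seen. saeg-2 had 17.8, 18.3 and 18.6 CPM in BY273 and 10.1, 11.1 and 9.77 CPM in N2 (log2 fold change 0.82 ± 0.09, adjusted p = 0.00183, edgeR).

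The genes of dopamine synthesis and transport named here did not pass the test. dat-1 had 1.31, 1.33 and 0.832 CPM in BY273 and 0.747, 0.978 and 0.959 CPM in N2, with overlapping libraries and a log2 fold change of 0.39 ± 0.26 (SE; adjusted p = 0.432, edgeR). cat-1, the vesicular monoamine transporter, was at 0.451, 0.148 and 0.777 CPM in BY273 and 0.669, 0.451 and 0.300 CPM in N2. Both genes were at or below 1.33 CPM in every library, and what size of change could be detected at this depth was not tested. cat-2, tyrosine hydroxylase, had too few counts to be tested, with 0.164, 0.247 and 0.277 CPM against 0.511, 0.263 and 0.180 CPM. The aromatic amino acid decarboxylase bas-1, which also serves serotonin, had a log2 fold change of 0.05 ± 0.12, and cat-4, the GTP cyclohydrolase for the biopterin cofactor, one of 0.14 ± 0.08. Of 24 dopamine synthesis, transport and receptor genes, 19 were tested and 0 were called by edgeR, with 3 at an unadjusted p under 0.05 and 0 called by DESeq2. The same list had 1 of 20 tested genes higher and 0 lower without krill oil at day 1, where 6.87% of all genes were called. On krill oil at day 3, where 13.7% of all genes were called, it had 4 of 21 higher and 0 lower.

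Among genes at 5 CPM or more, the largest rises in BY273 were in a pair of neighbours on chromosome IV. C27D8.3 (IV:12706700-12711744) had 133, 130 and 132 CPM in BY273 and 12.7, 14.3 and 14.7 CPM in N2. The groups lay far apart with little spread inside each, and the level was 9.50-fold higher in BY273 (log2 fold change 3.25 ± 0.06, adjusted p = 4.32e-09, edgeR), the smallest p of the comparison. C27D8.2 (IV:12711217-12714782), which overlaps it, had 9.84, 10.5 and 9.60 CPM against 0.826, 1.2 and 0.959 CPM, a log2 fold change of 3.31 ± 0.16 (adjusted p = 1.16e-05). Where the annotated genes overlap, a read could count for either. 3 further genes of the same stretch, C27D8.1, idpp-7 and T23F6.3, were higher by 2.21 to 3.43 on the log2 scale, so that 5 called genes next to each other spanned IV:12706700-12724760, or 18.1 kb. These 3 were named after their values were seen.

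A second stretch, on chromosome I, held tag-344, the F-box gene fbxa-125 and B0511.11 within 9.99 kb (I:10644245-10654237), all higher in BY273. B0511.11 (I:10648600-10654237) had 23.6, 27.1 and 28.4 CPM in BY273 against 3.42, 3.50 and 3.36 CPM in N2. That is 7.65-fold higher with no overlap (log2 fold change 2.94 ± 0.11, adjusted p = 1.59e-06, edgeR). fbxa-125 had 1.31, 1.18 and 1.66 CPM against 0.0787, 0.0376 and 0.120 CPM (log2 fold change 4.14 ± 0.40, adjusted p = 0.00131). It was the 1 called member of 308 tested F-box, MATH and BATH genes, a family of substrate adaptors for ubiquitin ligases. That is 0.325% called, beside 3.57% of all genes. Another stretch of higher genes lay at V:16926922-16930063 (Y102A5C.36, Y102A5C.5 and Y102A5C.6), with log2 fold changes of 1.01 to 1.43. A stretch of lower genes, msp-10, msp-56 and nspd-2, lay at IV:9837649-9844272, with log2 fold changes of -2.43 to -1.72. Called genes lay on every chromosome, with 55 higher and 53 lower of 2213 tested on chromosome IV and 23 higher and 46 lower of 1944 on chromosome X.

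2 other places, chosen after their values were seen, held a gene nearly silent in N2. ZK899.6 (X:9463345-9464741) had 3.07, 3.11 and 3.61 CPM in BY273 and 0.0787, 0.0752 and 0 CPM in N2 (log2 fold change 5.68 ± 0.37, adjusted p = 8.87e-05, edgeR). Its neighbour ZK899.5 (X:9459911-9460934) went the other way, with 1.35, 0.889 and 0.999 CPM in BY273 and 4.09, 4.89 and 4.68 CPM in N2 (log2 fold change -2.05 ± 0.19, adjusted p = 0.000995). B0507.8 (V:8760622-8762961) had 115 counts in BY273 and 2 in N2, a ratio of 63 on the scale of library size with a 95% counting interval of 17.1 to 527. Next to it, ddn-1 (V:8758820-8760516) was 2.81-fold higher in BY273 (adjusted p = 0.0206), a call lost without N2 replicate 1 or 2 (adjusted p up to 0.0686).

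**Figure D2:**
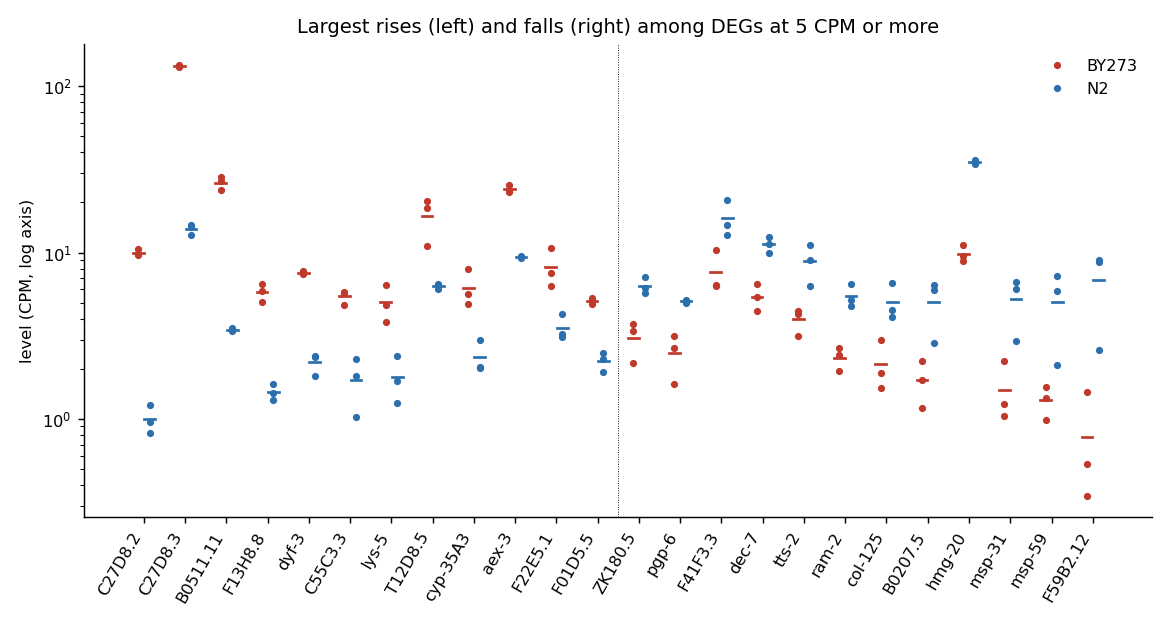
Levels (CPM, log axis) of DEGs at 5 CPM or more in the strain where they were higher: the 12 that rose most in BY273 and the 12 that fell most. Points are the 3 libraries of each strain, short lines their means, and the dotted line separates rises from falls. C27D8.3 and hmg-20 have tight groups far apart, whereas N2 libraries of msp-31, msp-59 and F59B2.12 are spread over a wide range.

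Among the other rises were a synaptic gene and a ciliary gene. aex-3 (X:751203-759734), a guanine nucleotide exchange factor for the synaptic vesicle GTPase RAB-3, had 25.6, 23.9 and 23.3 CPM in BY273 and 9.24, 9.52 and 9.35 CPM in N2. The level was 2.59-fold higher with no overlap (log2 fold change 1.37 ± 0.08, adjusted p = 4.12e-05, edgeR). dyf-3 (IV:3396581-3399231), needed for building sensory cilia, had 7.50, 7.70 and 7.44 CPM against 2.40, 2.37 and 1.80 CPM, which is 3.39-fold higher (log2 fold change 1.76 ± 0.14, adjusted p = 0.000349). Of 56 synaptic genes tested, 2 were higher (aex-3 and ric-19) and 1 was lower (unc-18, the syntaxin binding protein, log2 fold change -0.25 ± 0.06), with a median of 0.01. ric-19 and unc-18 each lost their call without BY273 replicate 2 or 3 or any N2 library, with adjusted p up to 0.105 for ric-19 and 0.168 for unc-18. Of 42 cilium genes tested, dyf-3 was the 1 higher and che-10, the ciliary rootlet protein, the 1 lower (log2 fold change -0.49 ± 0.09), and the che-10 call was lost without BY273 replicate 3 or N2 replicate 1 or 2 (adjusted p up to 0.0788). The share called was 5.36% of the synaptic and 4.76% of the cilium genes tested, near the 3.57% of all genes. Of 20 worm orthologs of PD genes tested, 0 were higher and 1 (5%) was lower. That gene was the acid sphingomyelinase asm-3, with 30.8, 30.7 and 42.6 CPM against 48, 54.5 and 59.7 CPM (log2 fold change -0.64 ± 0.13, adjusted p = 0.0306, edgeR), and its call was lost without BY273 replicate 1 or 2 or N2 replicate 2 or 3 (adjusted p up to 0.0928). ins-31 was the 1 called member of 96 insulin and neuropeptide genes tested (1.04%, beside 3.57% of all genes), at -2.96 on the log2 scale and under 2 CPM. Its call was lost without BY273 replicate 2 or N2 replicate 1 (adjusted p up to 0.0538).

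The remaining rises of this size were in F13H8.8, C55C3.3, lys-5, T12D8.5, cyp-35A3, F22E5.1 and F01D5.5, with log2 fold changes of 1.18 to 1.98 and no overlap between the strains. T12D8.5 (III:13625972-13626786) had 18.5, 11 and 20.4 CPM against 6.49, 6.36 and 6.00 CPM (log2 fold change 1.40 ± 0.20, adjusted p = 0.00889, edgeR). The lysozyme gene lys-5 (IV:11624252-11625582) had 3.81, 4.84 and 6.38 CPM against 2.40, 1.24 and 1.68 CPM, a log2 fold change of 1.48 ± 0.27 (adjusted p = 0.0208). The T12D8.5 call was lost with the 12 libraries of day 1 in 1 fit (adjusted p = 0.219). Lysozymes digest bacterial cell walls, and lys-5 was the 1 called member of 11 tested (9.09%, beside 3.57% of all genes). Its call was lost without BY273 replicate 2 or 3 or N2 replicate 2, and that of F22E5.1 without N2 replicate 2, with adjusted p up to 0.0587 and 0.0632.

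Among the falls at 5 CPM or more, hmg-20 had the smallest adjusted p. hmg-20 (I:12535314-12537671), an HMG box protein, had 9.51, 8.94 and 11.1 CPM in BY273 and 34.3, 36.1 and 34.8 CPM in N2. It was 3.57-fold lower in BY273 with no overlap (log2 fold change -1.83 ± 0.09, adjusted p = 1.16e-05, edgeR). dec-7 (III:9932398-9939704) had 5.37, 4.44 and 6.44 CPM against 9.87, 12.3 and 11.3 CPM, a log2 fold change of -1.05 ± 0.15 (adjusted p = 0.00841). ram-2 (II:11015589-11016881) had 1.93, 2.42 and 2.66 CPM against 4.76, 5.15 and 6.48 CPM, a log2 fold change of -1.22 ± 0.18 (adjusted p = 0.00889). These 3 kept their calls without any of the 6 libraries. F59B2.12 (III:9017601-9020965) fell most among genes at 5 CPM, with 0.533, 0.346 and 1.44 CPM against 8.73, 9.06 and 2.58 CPM. N2 replicate 3 lay well below the other N2 libraries, and the log2 fold change of -3.22 ± 0.54 (adjusted p = 0.0165) was no longer called without BY273 replicate 2 or N2 replicate 1 (adjusted p up to 0.0576). Calls of the ncRNA tts-2, the collagen col-125, the ABC transporter pgp-6, and B0207.5, F41F3.3 and ZK180.5 were lost without 3 to 5 of the 6 libraries. Their log2 fold changes were -1.59 to -1.01. The sperm gene msp-31, at -1.86, lost its call without 4 of the 6 libraries (adjusted p up to 0.0819). Near the floor, R53.8 (II:9976705-9977877), chosen after its values were seen, had 2 counts in BY273 and 49 in N2, an N2 to BY273 ratio of 22.4 with a counting interval of 5.87 to 190.

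Sperm genes made up the largest group of falls. The list held 108 genes, chiefly the major sperm proteins (MSPs), which form the filaments that move worm sperm, with further spe, ssq, msd and nspd genes. Of its 64 tested members, 25 were lower in BY273 and 1, the myosin gene spe-15, was higher. The median log2 fold change was -1.68 and 55 of 64 were negative, beside a median of 0.00 over all genes, and 40.6% of the tested members were called beside 3.57% of all genes. spe-18 (II:13151459-13153399) had 0.369, 0.494 and 0.388 CPM in BY273 and 2.60, 2.11 and 1.08 CPM in N2 (log2 fold change -2.24 ± 0.36, adjusted p = 0.0140, edgeR). msp-55 (IV:5055631-5056014) had 0.246, 0.296 and 0.555 CPM against 2.75, 2.52 and 0.959 CPM (log2 fold change -2.58 ± 0.45, adjusted p = 0.0190). msp-59 (IV:5312728-5313111) had 0.984, 1.33 and 1.55 CPM against 7.20, 5.87 and 2.1 CPM (log2 fold change -2.02 ± 0.40, adjusted p = 0.0318). The calls of spe-18, msp-55 and msp-59 were lost without 1, 3 and 5 of the 6 libraries, with adjusted p up to 0.0520, 0.0687 and 0.0999, N2 replicate 1 among them each time. In all 3 genes N2 replicate 3 was the lowest N2 library and stood nearest to BY273. MSP genes are near-identical copies, so the counts of single copies are uncertain.

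The sum over the 25 sperm genes called lower, which were chosen for that difference, showed the same spread between N2 libraries. It was 14, 12.7 and 21.4 CPM in BY273 and 79.5, 75.8 and 29.6 CPM in N2. Over all 108 members the sums were 311, 322 and 341 CPM against 460, 459 and 364 CPM, and 4 members had no count in any of the 6 libraries. N2 replicate 3 was also the smallest library and had the highest ribosomal RNA share of the N2 libraries, and the part of either in this result was not tested. In bulk RNA, fewer sperm and less sperm RNA per cell cannot be told apart. The number of lower sperm genes rested on few libraries: it was 6, 2 and 11 without BY273 replicates 1, 2 and 3, and 0, 1 and 43 without N2 replicates 1, 2 and 3. Of 76 members tested for a difference between diets in the strain effect, 0 passed by edgeR, with 11 at an unadjusted p under 0.05. Beside the sperm genes, the lists of germline and meiosis genes (51 tested) and of oocyte and eggshell genes (35 tested) had 0 members called by edgeR, with 7 in each at an unadjusted p under 0.05, and DESeq2 called 0 and 2 of them.

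**Figure D3:**
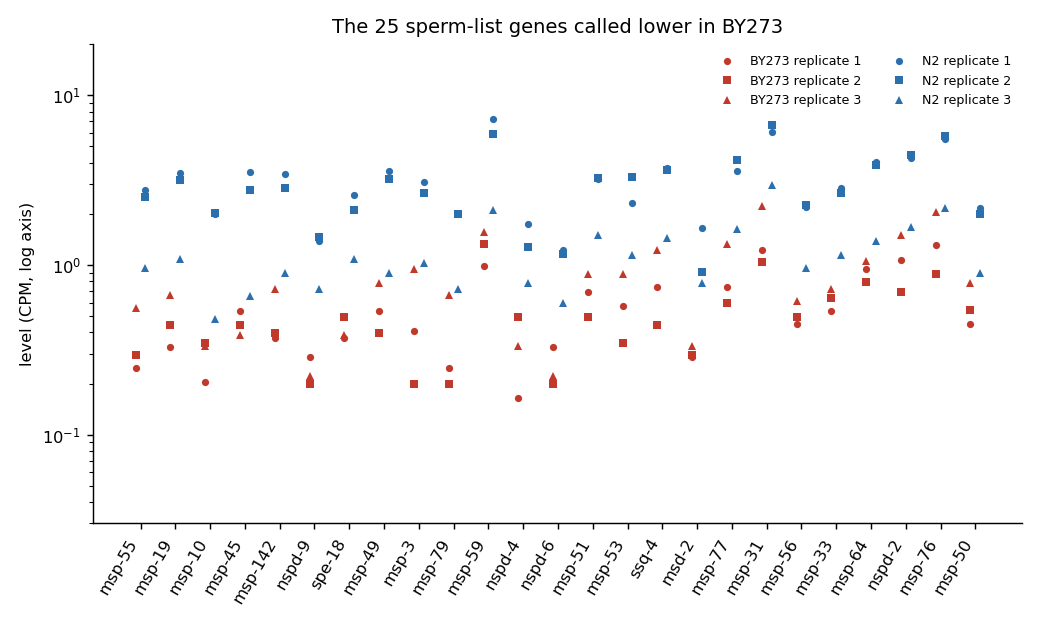
Level (CPM, log axis) of the 25 sperm genes lower in BY273, in each of the 6 libraries, with red for BY273, blue for N2 and a marker shape per replicate number. N2 replicates 1 and 2 lie together at the top, and N2 replicate 3 (blue triangles) lies between them and BY273. The genes were chosen as called lower.

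Many other lower DEGs followed the sperm list across the rest of the series. Over the 30 libraries outside this comparison, 35 of the 82 lower DEGs that are not on the list (42.7%) had a correlation of at least 0.8 with the summed level of the sperm genes, as had 131 of all 13461 genes tested (0.973%) and 0 of the 70 higher DEGs. These correlations are a description over libraries that share the labels discussed above. The median correlation was 0.55 for those 82 DEGs and -0.02 for all genes. spch-1 (IV:10110818-10111541), a sperm chromatin protein, had 0.492, 0.494 and 0.555 CPM in BY273 and 2.60, 2.26 and 1.08 CPM in N2, which is the spacing of the MSP genes. cylc-2 (I:9526539-9527441) had 0.164, 0.0494 and 0.277 CPM against 1.89, 1.73 and 0.839 CPM. Low-level members of other lists had the same shape, with N2 replicate 3 lowest among N2: clec-137, clec-197 and clec-221 among C-type lectins, fipr-17 and fipr-20 among antimicrobial peptides, nas-24 among molting genes and acdh-8 among acyl-CoA dehydrogenases fell by 2.51 to 3.39 on the log2 scale and were all at or below 2.67 CPM in every library. Where it was recomputed, each of these calls but that of clec-137 was lost without 2 to 5 of the 6 libraries. Over the 30 libraries outside this comparison, acdh-8 had a correlation of 0.95 with the sperm list. For the other low-level genes just named it was 0.36 to 0.57.

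Enzymes that modify foreign and lipid-soluble compounds were higher in BY273 where they differed. Of 57 cytochrome P450 genes tested, 7 were higher and 0 lower, with a median log2 fold change of 0.16. That is 12.3% called, beside 3.57% of all genes. By DESeq2 7 of the list were called as well, and 13 had an unadjusted p under 0.05. cyp-35A2 (V:7362319-7364182), a P450 of the intestine that responds to foreign compounds, had 34.4, 29 and 23.7 CPM in BY273 and 17.9, 14.8 and 14.3 CPM in N2. The strains did not overlap (log2 fold change 0.89 ± 0.14, adjusted p = 0.0121, edgeR), and the call held without any of the 6 libraries. Its relative cyp-35A3 (V:4022609-4024482) had 7.91, 4.94 and 5.60 CPM against 2.99, 2.03 and 2.04 CPM (log2 fold change 1.38 ± 0.22, adjusted p = 0.0140). These genes are similar copies of each other, so part of the reads could have been assigned to either. cyp-13A12, cyp-35C1, cyp-33C8, cyp-33E2 and cyp-33C9 were higher by 0.48 to 1.73 on the log2 scale, and cyp-33C8 lost its call without each of the 6 libraries in turn and cyp-33E2 without 4 of them (adjusted p up to 0.123 and 0.147).

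Of 58 UDP-glucuronosyltransferase genes tested, which conjugate such compounds, 4 were higher and 0 lower (6.90% called beside 3.57% of all genes, median 0.17): ugt-22, ugt-26, ugt-29 and ugt-62, by 0.50 to 0.55 on the log2 scale. ugt-62 (III:4537281-4540623) had 84.1, 72.3 and 82.8 CPM in BY273 and 62.0, 55.2 and 51.3 CPM in N2 (log2 fold change 0.50 ± 0.08, adjusted p = 0.0132, edgeR). Of the other 3, ugt-26 and ugt-29 lost their calls without N2 replicate 1 and ugt-22 without BY273 replicate 2. Of 35 glutathione S-transferase genes tested, 3 were higher and 0 lower (8.57% called, median 0.18). gst-1 (III:9059331-9060181) had 153, 153 and 160 CPM against 134, 131 and 127 CPM (log2 fold change 0.25 ± 0.04, adjusted p = 0.0134). gst-7 and gsto-1 were higher by 0.29 and 0.76, and gst-7 lost its call without BY273 replicate 2 or N2 replicate 1 (adjusted p up to 0.0876) and gsto-1 without each library in turn (adjusted p up to 0.108). Of 32 superoxide, peroxide and thiol enzymes tested, 0 were called by edgeR, with 6 at an unadjusted p under 0.05 and 1 called by DESeq2.

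Lysosomal calls were mostly proteases, all of them higher in BY273. Of 57 lysosomal hydrolase and vacuolar ATPase genes tested, 6 were higher and 1 was lower, with a median of 0.07. That is 12.3% called, beside 3.57% of all genes. cpr-5 (V:1132598-1134036), a cathepsin B-like protease, had 464, 373 and 405 CPM in BY273 and 252, 239 and 196 CPM in N2. It was 1.80-fold higher with no overlap (log2 fold change 0.85 ± 0.10, adjusted p = 0.00353, edgeR). cpr-9 (V:12003053-12004584), of the same family, had 1004, 968 and 1057 CPM against 712, 718 and 739 CPM (log2 fold change 0.48 ± 0.05, adjusted p = 0.00131). cpr-8, the neighbour of cpr-5, was higher by 0.77, the aspartic proteases asp-14 and asp-1 by 0.87 and 0.38, and vha-6, the intestinal subunit of the proton pump that acidifies the gut lumen, by 0.42. asp-1 lost its call without 5 of the 6 libraries (adjusted p up to 0.109), the exception being BY273 replicate 2. The lower gene was lmp-1, a lysosomal membrane protein, with a log2 fold change of -0.27 ± 0.06.

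Of 32 autophagy genes tested, wdfy-3 was the 1 called, or 3.1% beside 3.57% of all genes. wdfy-3 (IV:12653401-12674769), the ortholog of the human adaptor ALFY for clearance of aggregated protein, had 124, 112.2 and 121.7 CPM in BY273 and 62.9, 65.4 and 64.8 CPM in N2. Its level was 1.85-fold higher with no overlap (log2 fold change 0.89 ± 0.05, adjusted p = 2.73e-05, edgeR). The autophagy list as a whole did not move with it: 23 of 32 members had a negative log2 fold change and the median was -0.06. wdfy-3 lies on the same chromosome as C27D8.3 (IV:12706700-12711744). Both genes were called higher in BY273 on both diets at days 1 and 3, and lower, by label, on both diets at day 6. None of 35 proteasome genes tested was called by edgeR (0, with 3 at an unadjusted p under 0.05 and 0 by DESeq2).

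Heme and metal genes were higher where they differed, with 4 of 34 tested called and 0 lower (median 0.04). That is 11.8% called, beside 3.57% of all genes. hrg-7 (V:12742041-12744171), a secreted aspartic protease-like signal of intestinal heme status, had 279, 181 and 197 CPM in BY273 and 137, 122.1 and 85.1 CPM in N2 (log2 fold change 0.93 ± 0.19, adjusted p = 0.0322, edgeR). hrg-3 (V:9756468-9757019), a heme chaperone, had 4.88, 1.78 and 2.00 CPM against 0.865, 0.940 and 0.660 CPM (log2 fold change 1.81 ± 0.41, adjusted p = 0.0457). For both, BY273 replicate 1 was the highest library. cdr-2 (V:12414656-12415709), a relative of the cadmium-responsive cdr-1, had 8.28, 8.05 and 8.82 CPM against 4.92, 4.70 and 4.08 CPM (log2 fold change 0.87 ± 0.12, adjusted p = 0.00694). The metal transporter smf-3 was higher by 0.71 ± 0.16. The call of cdr-2 held without any library, that of hrg-7 was lost without BY273 replicate 3 or N2 replicate 2 (adjusted p up to 0.0696), and that of hrg-3 without 4 and that of smf-3 without each of the 6 libraries (adjusted p up to 0.130 and 0.135).

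The lipid lists differed in their share of called genes, which was 3.57% over all genes. Of 27 genes of fatty acid synthesis, desaturation and elongation tested, 0 were higher and 1 was lower. That gene was sbp-1, the SREBP transcription factor for lipid synthesis, with 30.6, 28.2 and 30.7 CPM in BY273 and 35.2, 37 and 35.3 CPM in N2 (log2 fold change -0.27 ± 0.06, adjusted p = 0.0484, edgeR), and it lost its call without each of the 6 libraries in turn (adjusted p up to 0.152). The list's median was 0.04. Of 25 genes of phosphatidylcholine synthesis and the S-adenosylmethionine cycle tested, 3 were higher and 0 lower (12% called). metr-1 (II:10926561-10931078), the vitamin B12-dependent methionine synthase, had 235, 255 and 247 CPM against 199, 193 and 206 CPM (log2 fold change 0.30 ± 0.04, adjusted p = 0.00841). The choline kinase ckb-2 was higher by 0.60 ± 0.11 and the cystathionine gamma-lyase cth-1 by 0.51 ± 0.12, and both calls rested on single libraries (adjusted p up to 0.0686 without BY273 replicate 3 or N2 replicate 1 or 2, and up to 0.147 without each library). Of 21 genes of propionate breakdown and vitamin B12 handling, 4 were called (19%), and acdh-9, ech-6 and mmaa-1 were higher by 0.20 to 0.25 and bckd-1A fell by 0.22 on the log2 scale. Each of these 4 calls was lost without 4 or 5 of the 6 libraries. All 6 vitellogenin genes, the yolk proteins that carry lipid to oocytes, were tested and 0 were called by edgeR, with 1 at an unadjusted p under 0.05 and 0 by DESeq2.

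Cuticle collagens differed in both directions, with a median of 0.07 over 92 tested. Of these, 6 were higher and 6 lower (13% called beside 3.57% of all genes). The higher ones were col-38, col-81, col-92, col-129, col-139 and col-142. col-81 (II:11012397-11013767) had 25.8, 24.3 and 25.2 CPM in BY273 and 13.5, 13.6 and 16.3 CPM in N2 (log2 fold change 0.80 ± 0.09, adjusted p = 0.00271, edgeR). col-139 (V:4652863-4653971) had 34.8, 32.9 and 32.3 CPM against 17.7, 18.7 and 21.8 CPM (log2 fold change 0.79 ± 0.09, adjusted p = 0.00219). Both collagens kept their calls without any of the 6 libraries, though not when the spread was estimated over all 36 libraries (adjusted p = 0.124 and 0.187). The lower ones were col-10, col-107, col-117, col-125, col-135 and col-144. col-117 (IV:8822962-8824195) had 0.451, 0.691 and 0.610 CPM against 1.69, 1.88 and 2.04 CPM (log2 fold change -1.68 ± 0.24, adjusted p = 0.00869).

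Markers of the main tissues were detected and moved by less than 0.5 on the log2 scale where they were called at all, with 1 pharyngeal exception. Of 40 body wall muscle genes tested, 3 were higher and 0 lower (7.5% called beside 3.57% of all genes). They were the myosin heavy chain myo-3, troponin C pat-10 and the calponin-like unc-87, by 0.30, 0.19 and 0.26. Each lost its call without 4 or 5 of the 6 libraries, with adjusted p up to 0.162. unc-54, the major muscle myosin, had a log2 fold change of 0.17 ± 0.07 that did not pass the test (adjusted p = 0.224, edgeR). Of 17 intestinal genes tested, 3 were higher and 0 lower (17.6% called): asp-1, vha-6 and the peptide transporter pept-1, by 0.38, 0.42 and 0.25. The pept-1 call was lost without 5 of the 6 libraries (adjusted p up to 0.109), the exception being BY273 replicate 1. The pharyngeal gene phat-4 was higher by 0.93 ± 0.13. Of 13 hypodermis and seam genes 0 were called by edgeR (2 at an unadjusted p under 0.05), and of 9 coelomocyte genes 0 (1 at an unadjusted p under 0.05), and DESeq2 called 0 in both.

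The Argonaute and small RNA list had 7 of 49 tested members called (14.3% beside 3.57% of all genes), 3 higher and 4 lower. vsra-1 (I:9673664-9678557), an Argonaute, had 63.8, 72.3 and 63.3 CPM in BY273 and 46.9, 44.4 and 45.3 CPM in N2 (log2 fold change 0.55 ± 0.06, adjusted p = 0.00271, edgeR). alg-5 (I:9989802-9993976), an Argonaute of the microRNA pathway in the germline, had 154, 172 and 170 CPM against 131, 124 and 131 CPM (log2 fold change 0.36 ± 0.05, adjusted p = 0.00841). Both kept their calls without any of the 6 libraries. The other higher member was prg-2, listed as a pseudogene, whose reads may be shared with the Piwi gene prg-1. On the lower side, nrde-3 (X:372235-376900), which carries small RNAs into the nucleus of somatic cells, had 70.4, 61.1 and 57.4 CPM against 86.2, 84.6 and 83.3 CPM (log2 fold change -0.43 ± 0.07, adjusted p = 0.0140), a call lost without BY273 replicate 2 or N2 replicate 1 (adjusted p up to 0.0608). ergo-1, sago-2 and wago-11, the last listed as a pseudogene, fell by 0.20, 0.56 and 0.80 on the log2 scale. Histone genes had 4 higher and 3 lower of 49 tested (14.3% called), and near-identical copies make the single genes uncertain.

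Of 16 small heat shock and inducible HSP70 genes tested, 2 were higher and 0 lower, or 12.5% called beside 3.57% of all genes. hsp-16.41 (V:1805178-1805875), a small heat shock protein, had 0.820, 0.642 and 0.888 CPM in BY273 and 0.118, 0.113 and 0.0600 CPM in N2 (log2 fold change 2.88 ± 0.40, adjusted p = 0.00813, edgeR), so both strains were below 1 CPM. F44E5.4, an inducible HSP70 with a near-identical neighbour, was higher by 1.75 ± 0.37, and its call was lost without each library in turn (adjusted p up to 0.132). The mitochondrial chaperone hsp-6 was higher by 0.19 ± 0.04, with 612, 632 and 625 CPM against 554, 557 and 526 CPM, and its call was lost without 5 of the 6 libraries (adjusted p up to 0.130). C-type lectins had 3 higher and 5 lower of 90 tested (8.89% called). clec-190 (IV:15124931-15126121) had 14.2, 20.5 and 15.8 CPM against 8.54, 7.03 and 7.26 CPM (log2 fold change 1.14 ± 0.15, adjusted p = 0.00614). clec-5 (III:4881888-4883606) had 13.8, 12.6 and 16.3 CPM against 21.9, 23.6 and 23 CPM (log2 fold change -0.68 ± 0.10, adjusted p = 0.00889). Of 59 antimicrobial peptide and infection response genes tested, 0 were higher and 4 lower (6.78% called). dod-23 and irg-8 fell by 0.58 and 0.65 on the log2 scale, and the others were the low-level fipr-17 and fipr-20 named above. The calls of dod-23 and irg-8 were lost without 2 and 5 libraries (adjusted p up to 0.0540 and 0.111).

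The lists of translation and respiration had 0 members called or a share near the 3.57% of all genes. Of 74 translation factor and tRNA synthetase genes tested, 2 were higher and 0 lower (2.70% called). Of 82 cytosolic ribosomal protein genes tested, 75 had a positive log2 fold change with a median of 0.09, and 0 were called by edgeR, with 16 at an unadjusted p under 0.05 and 1 called by DESeq2. Of the 12 mitochondrially encoded protein genes, 0 were called by edgeR (4 at an unadjusted p under 0.05, 2 called by DESeq2), and the median was 0.07. Of 51 nuclear-encoded respiratory chain genes tested, 2 were higher and 0 lower (3.92% called). They were nuo-4 and cyc-2.1, by 0.23 and 0.20 on the log2 scale. Their calls were lost without 3 and 4 of the 6 libraries. Across the 53 lists, 135 of the 480 called genes belonged to at least 1 list and 345 to none.

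The comparison on krill oil recurred in part without it. Among the libraries of day 1 without krill oil, which share none with the comparison above, 967 of 14080 genes (6.87%) differed between the strains. Of the 480 genes, 471 were tested there, 244 were called in the same direction (51.8% of those tested, and 25.2% of the genes called there) and 3 in the opposite one, clec-50, col-117 and tsp-1. Across 13248 genes the log2 fold changes of both comparisons had a Pearson r of 0.63 and a Spearman rho of 0.51, as a description, since genes are not independent. C27D8.3, B0511.11 and hmg-20 had log2 fold changes of 3.16, 2.77 and -1.87 without krill oil, beside 3.25, 2.94 and -1.83 with it. The sperm list had 2 higher and 16 lower of 74 tested there and a median of -0.79.

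The difference between the diets was itself tested. Of 14496 genes, 13 (0.0897%) had a strain difference on krill oil that differed from that without it (edgeR), a count that was 49 with DESeq2 and 507 when only genes with no counts were removed. Of the 13 genes, 6 were among the 480 genes. All 6 had a lower strain difference on krill oil. col-139 averaged 35.5 CPM in BY273 and 20.5 CPM in N2 on krill oil, and 82.6 and 29.2 CPM without it. The BY273 excess was there on both diets but smaller on krill oil, by -0.70 on the log2 scale (adjusted p = 0.0438, edgeR). col-129 did likewise, with 45.8 and 29.7 CPM on krill oil and 103.1 and 32.7 CPM without it (difference -1.03, adjusted p = 0.0215). F40F8.5 averaged 85.8 and 66.1 CPM on krill oil and 102 and 49 CPM without it (difference -0.68, adjusted p = 0.00422). For the other 3, of which col-117 and tsp-1 were named after their values were seen, the direction turned. col-117 averaged 0.622 and 1.98 CPM on krill oil and 3.78 and 1.09 CPM without it (difference -3.45, adjusted p = 0.00127), clec-50 averaged 71.7 and 89.1 CPM and then 95.6 and 73.6 CPM (difference -0.69, adjusted p = 0.0106), and the tetraspanin tsp-1 averaged 0.406 and 1.14 CPM and then 0.646 and 0.245 CPM (difference -2.88, adjusted p = 0.0103). The call on krill oil itself was lost without 3 of the 6 libraries for clec-50 and without 4 for tsp-1 (adjusted p up to 0.0761 and 0.107). The 13 calls depended on single libraries, with 3 genes passing without BY273 krill oil replicate 2, 4 without BY273 control replicate 3, 5 without BY273 control replicate 1 or 2 or N2 krill oil replicate 2, 8 without BY273 krill oil replicate 1 or 3, and 21 without N2 control replicate 3.

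At day 3 on krill oil, 2002 of 14646 genes (13.7%) differed between the strains. Of the 480 genes of day 1, 473 were tested there, and 261 were called in the same direction (55.2%) and 17 in the opposite one. The sperm list had 3 higher and 51 lower of 71 tested at day 3, with a median of -2.27. cpr-9 was higher by 1.01 at day 3, beside 0.48 at day 1, and aex-3 by 1.72, beside 1.37. hrg-7, in contrast, had a log2 fold change of 0.22 at day 3 that did not pass the test (adjusted p = 0.110, edgeR), beside 0.93 at day 1. Over the 18 krill oil libraries, the strain difference changed from day 1 to day 3 in 222 of 15738 genes (1.41%), among them 37 of the 480. These tests use the day 1 libraries that chose the 480 genes.

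**Figure D4:**
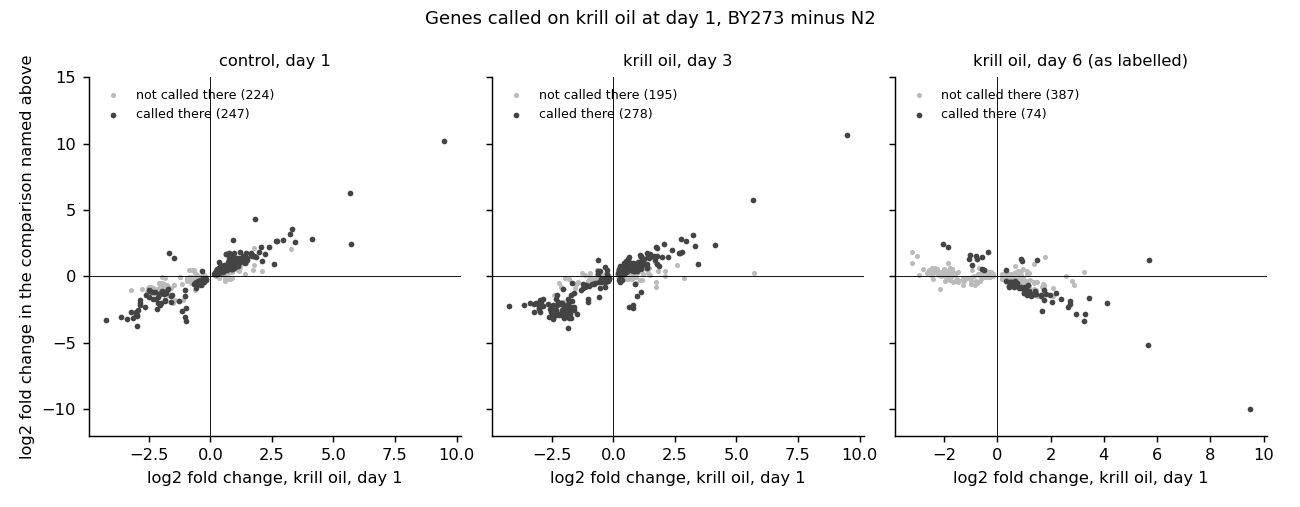
The 480 genes called on krill oil at day 1, with their log2 fold change (BY273 minus N2) there on the x axis and in another comparison on the y axis: without krill oil at day 1, on krill oil at day 3, and on krill oil at day 6 by label. Dark points were called in the comparison on the y axis (247, 278 and 74 genes). Points in the first 2 panels lie along the rising diagonal, and in the third most called points lie on the falling one.

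A core of strain differences was shared by the comparisons of days 1 and 3 on both diets. Without krill oil at day 3, 5581 of 14423 genes (38.7%) differed between the strains. Of the 480 genes, 119 were called in the same direction in all 4 of these comparisons, 70 higher and 49 lower. DESeq2 gave 109 such genes, and leaving out the in-between library, N2 control day 3 replicate 3, gave 124. In 20 of the 70 higher and 28 of the 49 lower genes the log2 fold change was beyond 1 in all 4 comparisons. The higher ones of this size included T23G5.11, ZK899.6, C27D8.3, C27D8.2, B0511.11 and dyf-3, and the lower ones hmg-20 and F59B2.12 with many sperm genes.

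At day 6 the libraries did not carry these differences under their labels. T23G5.11 was 0 in all 6 libraries labelled BY273, and reached 4.20 to 5.21 CPM on krill oil and 11.8 to 17 CPM without it in those labelled N2, on the scale of all 36 libraries. C27D8.3 was 11.8 to 14.3 CPM in the day 6 libraries labelled BY273 and 115 to 136 CPM in those labelled N2, and hmg-20 was 33.8 to 44.7 CPM and 7.16 to 10.6 CPM. At days 1 and 3, C27D8.3 had been 130 to 147 CPM in every BY273 library, and 13.5 to 16.2 CPM in every N2 library but N2 control day 3 replicate 3, which had 38.7 CPM. In that library T23G5.11 had 13 counts and B0511.11 was 8.24 CPM. Whether strain labels were exchanged, or that library mixed, was not tested. On krill oil at day 6, 179 of 15018 genes (1.19%) were called by label, and without krill oil 11920 of 14627 (81.5%).

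**Figure D5:**
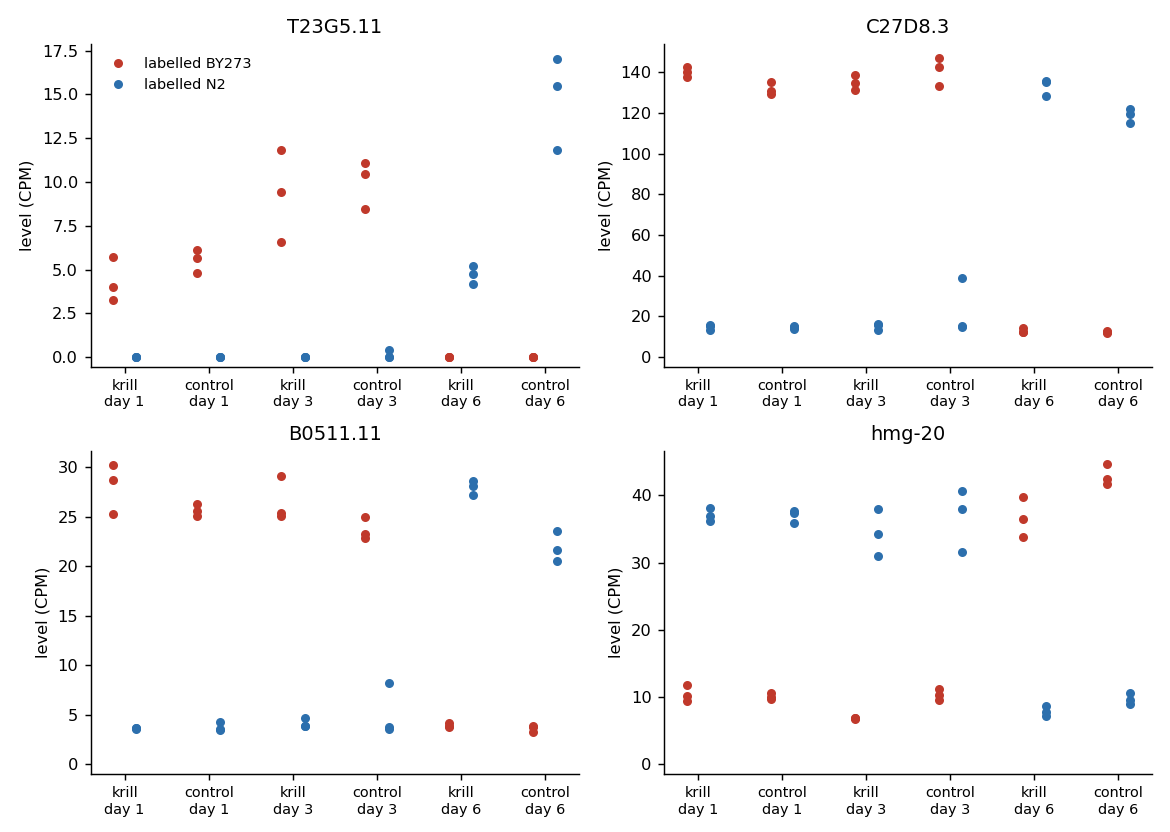
Level (CPM on the scale of all 36 libraries, linear axis) of T23G5.11, C27D8.3, B0511.11 and hmg-20 in each library, by diet and day, with red for libraries labelled BY273 and blue for those labelled N2. The order of the strains is the same in the 4 groups of days 1 and 3 and turned in both groups of day 6, and 1 blue point of control day 3 lies above its group for C27D8.3 and B0511.11.

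Of the 480 genes, 461 were tested on krill oil at day 6, and 5 were called in the same direction (1.08%) and 69 in the opposite one (15%). Over the krill oil libraries, 1268 of 15738 genes (8.06%) had a strain difference that differed between day 6, by label, and day 1. Among them were 366 of the 480, again with the day 1 libraries that chose them. Of the 119 genes shared by days 1 and 3, 40 were called in the opposite direction in both comparisons of day 6, 37 of them higher and 3 lower at day 1. Among genes beyond 1 on the log2 scale in all 4 earlier comparisons, 18 of 20 higher genes turned and 1 of 28 lower genes did. Called in the same direction in all 6 strain comparisons were 0 genes by edgeR and 0 by DESeq2, and 1 gene had an unadjusted p under 0.05 in each (edgeR).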

How the data were processed

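Whole-worm total RNA was depleted of ribosomal RNA and sequenced in paired ends. Per the submitters' processing notes the authors used STAR 2.7.10a against WBcel235, UMI-tools and SAMtools, and deposited raw counts per gene for each library. STAR's own gene counting is stated for the study's age prediction only, and for these tables the counting program and its use of strand are not given in the sources used here, so reads of overlapping or antisense genes cannot be told apart. Positions are those of the WBcel235 annotation, release 115. The libraries compared held 16488713 to 25052350 counts, and genes with a few counts have wide errors.

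Samples were grouped by the strain, treatment and age in the labels. The 6 libraries were fitted alone with edgeR 4.0.16 (filterByExpr, TMM factors, quasi-likelihood test at the program's default prior count, Benjamini-Hochberg adjustment over all genes tested) in R 4.3.3. Log2 fold changes are BY273 minus N2 with their SE. A gene was called at an adjusted p under 0.05, and counted as a DEG where its log2 fold change also exceeded 1 in size. Levels are CPM on the scale of the TMM factors of the 6 libraries unless the scale of all 36 is named. Strain by diet and strain by age terms were fitted over the 12 libraries of day 1 and the 18 libraries on krill oil. The edgeR fits of the strain difference on krill oil at day 1 and of the strain by diet term were tested on simulated counts.

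Named genes were the 12 DEGs that rose most and the 12 that fell most at a mean of at least 5 CPM in the higher strain and no overlap, up to 4 members with the smallest p of each list with a called member, 5 dopamine genes and unc-54 whatever their value, genes shared by all strain comparisons (0 were found), and genes that passed the diet term at 5 CPM or more in some group. Further names are given as chosen after their values were seen. The members and the 53 lists were chosen with earlier results of these data known. Alternatives were DESeq2 1.42.0, RLE factors, other filters, no ribosomal RNA genes, a replicate block, other sets of libraries, other fold thresholds, and each library left out. Figures were drawn with matplotlib 3.10.9.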

Additional observations from a re-analysis of the deposited data

Results flagged for a closer look

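The strain difference depended on the diet at day 1 in 6 of the genes called on krill oil (edgeR interaction term). The strain difference on krill oil minus that without it was -0.68 for F40F8.5, -0.69 for clec-50, -3.45 for col-117, -1.03 for col-129, -0.70 for col-139 and -2.88 for tsp-1 on the log2 scale.

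On krill oil, the strain difference also differed between day 3 and day 1 in 37 of the 480 genes. Between day 6, by label, and day 1 it differed in 366. The day 6 libraries go against their labels, so age and labelling cannot be told apart there.

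T23G5.11, at 0 in every other N2 library of days 1 and 3, had 13 counts in N2 control day 3 replicate 3, and was at 11.8 CPM or more in the libraries labelled N2 at day 6 without krill oil.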

How the results depend on the processing

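Among 124 called genes chosen for description, 31 kept their call under every alternative run and 0 turned direction. Counts depended more on the setting. Removing only genes with no counts gave 755 genes higher and 978 lower, 135 DEGs higher and 423 lower, and 53 lower sperm genes, and for the diet term 507 genes, for the strain difference without krill oil 1459, at day 3 on krill oil 3186 and at day 6 by label 599. A fit of all 36 libraries gave 579 higher, 715 lower, 130 and 295 DEGs and 48 sperm genes, and one of the 12 libraries of day 1 gave 397 lower, 206 lower DEGs and 41 sperm genes. DESeq2 called 39 lower sperm genes, 49 genes for the diet term and 285 at day 6. At any fold change the DEG counts become 255 and 225, and a test against the fold threshold itself (glmTreat) gave 11 and 3. Leaving out both libraries numbered 3, chosen after seeing the data, gave 118 higher, 46 higher and 184 lower DEGs and 43 sperm genes. Leaving out 1 library gave 102 to 298 higher, 35 to 315 lower, 46 to 64 higher DEGs, 14 to 212 lower DEGs, 0 to 43 sperm genes, 3 to 21 genes for the diet term, 191 to 1951 without krill oil, 1068 to 3047 at day 3 and 61 to 225 at day 6. The difference in ribosomal RNA share was -1.09 to 8.53 percentage points, and was negative without BY273 replicate 3. Genes called in all 6 strain comparisons were 0, and 119 in the 4 of days 1 and 3, a choice made after seeing the data. The cause of these changes was not tested. With the replicate block, 94 genes were higher and 28 lower, with 35 and 15 DEGs and 1 sperm gene. Same-numbered libraries had correlations of -0.19, -0.24 and -0.08 and 0 of 3 in each strain correlated best with their own number, so the numbers were not taken as pairing. Low counts make the levels of dat-1, cat-1, cat-2 and most DEGs uncertain.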
